A study of Rattus norvegicus with 6 samples.

Results

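The 6 genes described here are Fos, Fosb and Fosl1 of the Fos family, Jun and Junb of the Jun family, and Atf3 of the ATF family, which encode subunits of the transcription factor AP-1. They were taken by gene ID from a table of 22250 genes (Fos ENSRNOG00000008015, Fosb ENSRNOG00000046667, Jun ENSRNOG00000026293, Junb ENSRNOG00000042838, Fosl1 ENSRNOG00000020552 and Atf3 ENSRNOG00000003745), and all 6 were found in it. They were chosen with the difference between the groups in these same libraries already known, so that difference is given below as a description and not as a test. Messenger RNA was measured in achilles tendons of Sprague-Dawley rats, with 3 injury model rats and 3 rats given celecoxib + lactoferrin, all taken on day 14 after the tendon had been cut at its midpoint and sutured. The injury model rats are labelled as not treated. The treated rats had daily injections into the injured site of celecoxib (10 mg/kg), which blocks cyclooxygenase-2, and of lactoferrin (2 g/kg), a milk glycoprotein that binds iron. The study's methods describe no vehicle injection for the injury model group, and rats given celecoxib alone were not analysed here, so the injections, celecoxib and lactoferrin cannot be told apart.

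AP-1 is a dimer of basic leucine zipper proteins. Fos family proteins do not pair with each other and bind DNA as partners of Jun family proteins, whereas Jun proteins also pair among themselves, and Atf3 forms dimers with itself or with Jun proteins and often acts as a repressor. Fos, Fosb, Jun, Junb and Atf3 are immediate early genes, which means that their transcription starts within minutes of a stimulus such as serum, stretch, injury or cell stress and needs no new protein, and that their mRNAs are short-lived. Fosl1, which encodes Fra-1, comes up later and is itself a target of AP-1. In connective tissue, AP-1 is known for driving genes of matrix turnover and inflammation after injury.

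The sequence just upstream of the start site is shown for the members that a RefSeq table of promoters (build GRCr8) held, since serum response factor and CREB act on several immediate early genes through elements close to the start. Windows were found for 3 of the 6 members: Fosb, Junb and Fosl1. Each covers the 250 bases before the annotated start, written 5′ to 3′ on the strand of the gene. Capitals mark every match on either strand to the letters searched: the cAMP response element TGACGTCA and its core TGACG, the TPA response element TGANTCA to which AP-1 binds, the TATA sequence TATAAA, the GC box GGGCGG, and the CArG box of serum response factor.
Fosb (chr1:88089185-88089434, minus strand): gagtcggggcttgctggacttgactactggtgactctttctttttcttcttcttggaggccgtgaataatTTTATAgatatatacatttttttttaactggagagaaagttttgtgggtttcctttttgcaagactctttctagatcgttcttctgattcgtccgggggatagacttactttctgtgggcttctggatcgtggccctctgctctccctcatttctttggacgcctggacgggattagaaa
Junb (chr19:40080876-40081125, plus strand): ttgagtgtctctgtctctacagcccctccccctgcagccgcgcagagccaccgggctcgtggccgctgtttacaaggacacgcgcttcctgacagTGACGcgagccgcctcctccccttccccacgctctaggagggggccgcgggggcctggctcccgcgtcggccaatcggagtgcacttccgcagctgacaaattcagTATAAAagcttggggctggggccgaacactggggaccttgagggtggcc
Fosl1 (chr1:212183635-212183884, plus strand): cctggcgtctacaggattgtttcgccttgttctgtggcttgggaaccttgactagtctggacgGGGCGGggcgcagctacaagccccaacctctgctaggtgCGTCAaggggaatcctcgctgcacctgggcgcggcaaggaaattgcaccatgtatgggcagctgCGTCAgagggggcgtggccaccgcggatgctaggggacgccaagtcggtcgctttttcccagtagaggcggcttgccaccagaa
The Junb window held TGACG at positions -155 to -151 from the start and TATAAA at -49 to -44. The Fosl1 window held TGACG on the opposite strand at -148 to -144 and at -84 to -80, and GGGCGG at -187 to -182. In the Fosb window, TATAAA was found on the opposite strand at -180 to -175. Of 33469 promoter windows of the same length, 18.2% held TGACG, 12.9% TATAAA and 30.5% GGGCGG. The full TGACGTCA (1.59% of all windows), TGANTCA (6.34%) and the CArG box (1.5%) were found in none of the 3 windows. TGACG lies within TGACGTCA, so the core is counted wherever the full element is. The share of G and C was 43.6% for Fosb, 66.0% for Junb and 62.0% for Fosl1, against a median of 51.2% over all windows. These letters are a description of the windows and not of binding.

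The libraries held between 34546567 and 47181784 counts. Levels are given as CPM (counts scaled to a common library total) after TMM normalization, which scales libraries so that most genes are level between them. Of the 22250 genes, 15122 had enough counts to be tested, all 6 members among them. In edgeR's quasi-likelihood test, 395 of the 15122 genes (2.61%) had an unadjusted p-value under 0.05 and 1 gene (0.00661%) had an adjusted p-value under 0.05, with the median log2 fold change over all genes tested at 0.0067. The file pairs no IDs with symbols and 0 of its IDs were found in the reference table, so markers of tendon, muscle, fat, blood or immune cells could not be looked up and the labelled tissue was not checked. In whole tendon, fewer cells of a type and less RNA per cell cannot be told apart.

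All 6 AP-1 genes had lower mean levels in the celecoxib + lactoferrin treatment group than in the injury model group, and the size of the difference varied widely between them. Fos was lower by 4.34-fold and Fosb by 3.07-fold. Atf3, Jun, Junb and Fosl1 were lower by 1.68-fold, 1.58-fold, 1.39-fold and 1.23-fold. In 4 members, Fos, Fosb, Jun and Fosl1, all treated libraries lay below all injury model libraries, which was so for 3.69% of all genes tested, and since the members were chosen on this contrast nothing is read from that share. In none of the members did all treated libraries lie above all injury model libraries, as they did for 4.11% of the genes tested. The 4 became 3 when library size alone was used for scaling, where Fosl1 overlapped. The 6 members had a median log2 fold change of -0.71.

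**Figure D1:**
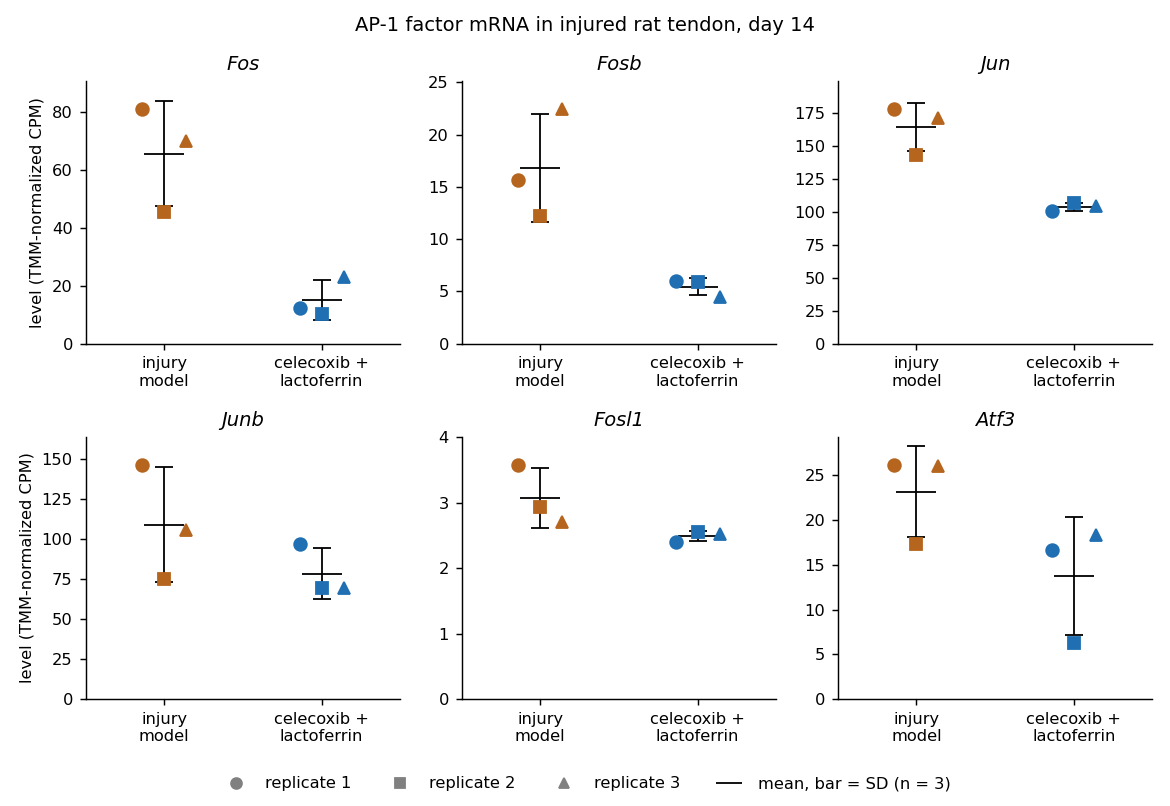
Level of each AP-1 gene (TMM-normalized CPM, each panel with its own axis from 0) in the 3 injury model and 3 celecoxib + lactoferrin libraries; symbols mark the replicate, the horizontal line is the mean and the bar the SD (n = 3). Fos, Fosb and Jun show a clear gap between the groups, Junb and Atf3 overlap, and the gap of Fosl1 is narrow (2.70 against 2.55 CPM).

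Fos encodes c-Fos, the founding Fos protein, which cannot bind DNA without a Jun partner. Its levels were 80.8, 45.4 and 69.9 CPM in injury model replicates 1, 2 and 3, from 3458, 2184 and 2360 counts. In celecoxib + lactoferrin replicates 1, 2 and 3 they were 12.2, 10.1 and 22.9 CPM, from 417, 348 and 1153 counts. The groups did not overlap, and treated replicate 3 was the highest of its group. The mean was 65.4 ± 18.1 CPM (SD, n = 3) without treatment and 15.05 ± 6.86 CPM (SD, n = 3) with treatment. This corresponds to a log2 fold change of -2.12 (standard error 0.36), so that the treated level was 23.0% of the injury model level. Of all genes tested, 55 (0.364%) had a lower log2 fold change. Over the 9 pairs of 1 treated and 1 injury model library, the treated level lay between 12.5% and 50.3% of the other.

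Fosb encodes a relative of c-Fos that is made in a full-length form and in the shorter ΔFosB form, which the counts per gene do not separate. Its levels were 15.7, 12.2 and 22.4 CPM in injury model replicates 1, 2 and 3, from 670, 588 and 757 counts. The treated replicates 1, 2 and 3 had 6.02, 5.88 and 4.48 CPM, from 206, 203 and 226 counts. All treated libraries lay below all injury model libraries, and the library with the highest Fosb was injury model replicate 3, not replicate 1 as for Fos. The mean was 16.8 ± 5.19 CPM (SD, n = 3) without treatment and 5.46 ± 0.849 CPM (SD, n = 3) with treatment. The log2 fold change was -1.62 (standard error 0.27), and 118 genes tested (0.780%) had a lower one. In each of the 9 pairs of libraries the treated level was the lower one, at 20.0% to 49.2% of the injury model level.

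Fosl1 encodes Fra-1, a Fos family protein that lacks the strong activation domain of c-Fos. It was the least abundant member by count, with 153, 141 and 91 counts in injury model replicates 1, 2 and 3 and 82, 88 and 127 counts in the treated replicates. These counts correspond to 3.58, 2.93 and 2.70 CPM without treatment and to 2.39, 2.55 and 2.52 CPM in the treated group. The treated libraries lay close together and just below the injury model libraries. The mean was 3.07 ± 0.455 CPM (SD, n = 3) against 2.49 ± 0.0823 CPM (SD, n = 3), and the log2 fold change of -0.30 was about as large as its standard error of 0.29. Counting alone gives a coefficient of variation of 8.996% per injury model library and 10.2% per treated library at this depth, so the gap between 2.70 and 2.55 CPM is within counting error. With library size alone, the highest treated library (2.74 CPM) lay above the lowest injury model library (2.63 CPM).

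Jun encodes c-Jun, the subunit with which Fos proteins pair most often. Its levels were 178, 143 and 171 CPM in injury model replicates 1, 2 and 3, from 7610, 6895 and 5772 counts. In treated replicates 1, 2 and 3 they were 100, 106 and 104 CPM, from 3439, 3671 and 5248 counts. The groups did not overlap, and the treated libraries were nearly level, with a coefficient of variation of 2.89% against 11.1% in the injury model group. The mean was 164 ± 18.2 CPM (SD, n = 3) without treatment and 104 ± 2.998 CPM (SD, n = 3) with treatment. The log2 fold change was -0.66 (standard error 0.15), the smallest standard error of the 6 members, and 684 genes tested (4.52%) had a lower log2 fold change. Jun was also the member with the lowest dispersion, with a biological coefficient of variation of 20.6%, below which 5.80% of the genes tested lay. This dispersion is moderated across genes by edgeR, so it is not the spread seen between these replicates (11.1% and 2.89%).

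Junb encodes a Jun family protein that is a weaker activator than c-Jun and can oppose it. Its levels were 146, 74.8 and 106 CPM in injury model replicates 1, 2 and 3, from 6263, 3593 and 3563 counts. The treated replicates 1, 2 and 3 had 96.6, 69.3 and 69.1 CPM, from 3308, 2393 and 3483 counts. The groups overlapped, because treated replicate 1 lay above injury model replicate 2, and 8 of the 9 pairs of libraries had the treated level below the other. The mean was 109 ± 35.9 CPM (SD, n = 3) against 78.4 ± 15.8 CPM (SD, n = 3), with a log2 fold change of -0.48 (standard error 0.27). Injury model replicate 1 carried much of this difference: without it the log2 fold change was -0.20.

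Atf3 encodes a stress-induced factor that represses many of its targets, cytokine genes among them. Its levels were 26.2, 17.3 and 26.0 CPM in injury model replicates 1, 2 and 3, from 1119, 830 and 878 counts. In treated replicates 1, 2 and 3 they were 16.7, 6.23 and 18.3 CPM, from 571, 215 and 923 counts. Treated replicate 3 lay above injury model replicate 2, so the groups overlapped, and treated replicate 2 stood well below all other libraries. The mean was 23.2 ± 5.09 CPM (SD, n = 3) without treatment and 13.7 ± 6.55 CPM (SD, n = 3) with treatment. The log2 fold change was -0.75 (standard error 0.40), the largest standard error of the 6. Without treated replicate 2 it was -0.40, and without treated replicate 3 it was -1.02.

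**Figure D2:**
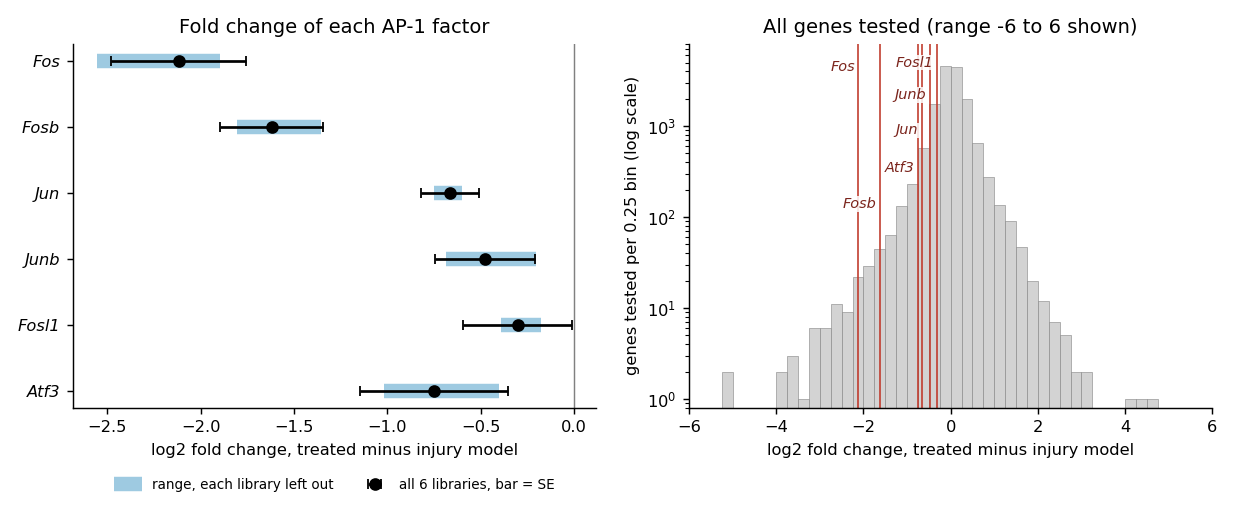
Left, log2 fold change (treated minus injury model) of each AP-1 gene with its standard error (black) and the range over the 6 fits that each left out 1 library (blue); right, the number of genes tested (log scale) in bins of log2 fold change, with the 6 members as red lines. Fos at -2.12 and Fosb at -1.62 lie in the thin lower tail, and the other members lie between -0.75 and -0.30.

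In the 84 combinations of the 6 members with 14 alternative fits, among them 6 fits that each left out 1 library, the log2 fold change was below 0 in 84. These fits reuse the same libraries, and for Fos, Fosb, Jun and Fosl1, whose groups do not overlap, leaving out 1 library could not turn the sign, so they describe the size of the difference and not its direction. For Fos it ran from -2.56 to -1.89 over the fits that left out 1 library, and for Fosb from -1.80 to -1.36. The corresponding range was -0.75 to -0.60 for Jun, -0.69 to -0.20 for Junb, -0.39 to -0.18 for Fosl1 and -1.02 to -0.40 for Atf3. The ranges of Fos and Fosb met neither each other nor that of Jun, Junb, Fosl1 or Atf3. Such ranges are not intervals of uncertainty, so they do not rank Fos against Fosb. The standard errors were 0.36 for Fos (-2.12) and 0.27 for Fosb (-1.62). Within the 3 libraries with the most counts, Fosb had the lower value (-1.62 against -1.40 for Fos).

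The libraries fell by total counts into 3 deeper ones (injury model replicates 1 and 2 and treated replicate 3) and 3 shallower ones, a division that crosses the groups and for which the labels give no reason. Within the shallower libraries the difference in log2 CPM, treated minus injury model, was -2.65 for Fos, -1.91 for Fosb, -0.73 for Jun, -0.37 for Junb, -0.12 for Fosl1 and -1.35 for Atf3. Within the deeper libraries it was -1.40 for Fos, -1.62 for Fosb, -0.62 for Jun, -0.60 for Junb, -0.36 for Fosl1 and -0.21 for Atf3. Each of these values rests on 1 library of one group and 2 of the other. The value was below 0 for all 6 members at both depths, which for Fos, Fosb, Jun and Fosl1 follows from groups that do not overlap. The value of Fos differed by more between depths than that of Fosb or Jun, and that of Atf3 also differed widely (-1.35 against -0.21). With a term for this division in the fit, the log2 fold change was -2.06 for Fos and -1.78 for Fosb.

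Across the 6 libraries the members shared their highest library more than their lowest. Injury model replicate 1 was the highest library for 5 of the 6 members, and injury model replicate 3 was the highest for Fosb. How often injury model replicate 1 was the highest over all genes tested was not counted, so nothing is read from the 5. The lowest library was always a treated one, which for Fos, Fosb, Jun and Fosl1 follows from groups that do not overlap. Each treated library was the lowest for 2 members: replicate 1 for Jun and Fosl1, replicate 2 for Fos and Atf3, and replicate 3 for Fosb and Junb. Among the injury model libraries, replicate 2 had the lowest level of every member except Fosl1, for which it was replicate 3. Treated replicate 3 had the highest Fos of its group but the lowest Fosb.

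**Figure D3:**
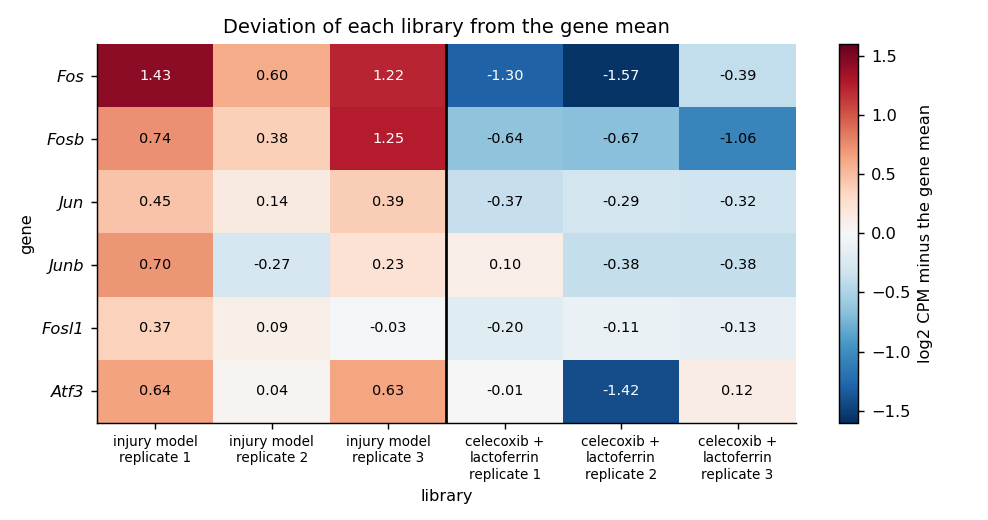
Deviation of log2 CPM (prior count 2) from the mean of each gene over the 6 libraries, with genes in rows, libraries in columns and a line between the groups; red is above and blue below the mean. Fos spans 1.43 to -1.57 and Fosl1 0.37 to -0.20, and Atf3 is far below its mean in celecoxib + lactoferrin replicate 2 alone (-1.42).

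Whether the members moved together beyond the group difference depended on the pair and on single libraries. With each group's mean subtracted, Pearson's r of the deviations over the 6 libraries was above 0 in 12 of the 15 pairs of members, with a median of 0.42 and a range from -0.38 to 0.77. The highest value was that of Fos and Atf3 (r = 0.77, Spearman's rho = 0.77), followed by Jun and Junb (r = 0.68, rho = 0.66). Fosb and Fosl1 had the lowest value (r = -0.38, rho = -0.26), and Fos and Fosb, the members with the largest fold changes, showed almost none (r = -0.045, rho = 0.086). These are descriptions over 6 libraries that share their scaling and have only 4 free deviations per gene, and other genes under the same scaling were not compared. The median was 0.091 without injury model replicate 1 and turned to -0.13 without injury model replicate 2.

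The balance between members was also followed as a ratio of counts within a library, which needs no scaling between libraries. Because gene length enters each ratio, it is compared between libraries and not between genes. Fos had 45.4, 31.7 and 40.9 counts per 100 Jun counts in injury model replicates 1, 2 and 3 and 12.1, 9.48 and 21.97 in treated replicates 1, 2 and 3. The mean was 39.3 ± 7.01 (SD, n = 3) against 14.5 ± 6.58 (SD, n = 3), without overlap. Fos was therefore lower in treated rats relative to Jun as well. This largely follows from their log2 fold changes (-2.12 for Fos and -0.66 for Jun). Both genes were chosen on this contrast, so the ratio is a description and not a test.

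Fosb had 8.80, 8.53 and 13.1 counts per 100 Jun counts in the injury model libraries and 5.99, 5.53 and 4.31 in the treated ones, again without overlap. Fosl1 had 2.01, 2.04 and 1.58 counts per 100 Jun counts in the injury model libraries and 2.38, 2.40 and 2.42 in the treated ones. The mean was 1.88 ± 0.261 (SD, n = 3) against 2.40 ± 0.018 (SD, n = 3), with all treated libraries higher. The closest libraries, 2.04 with a counting standard error of 0.17 and 2.38 with one of 0.27, are within counting error of each other. The difference between the group means was not weighed against counting error. Junb per 100 Jun counts (65.4 ± 15.4 against 75.9 ± 17.6; SD, n = 3) and Atf3 per 100 Jun counts (14.0 ± 1.70 against 13.3 ± 6.51; SD, n = 3) overlapped between the groups. Fosb per 100 Fos counts also overlapped, with 19.4, 26.9 and 32.1 in the injury model libraries and 49.4, 58.3 and 19.6 in the treated ones. The composition of the 6 genes thus differed between the groups mainly in Fos and Fosb: the Fos family made up 22.2%, 20.5% and 23.9% of the counts of the 6 members in the injury model libraries and 8.79%, 9.24% and 13.5% in the treated ones.

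**Figure D4:**
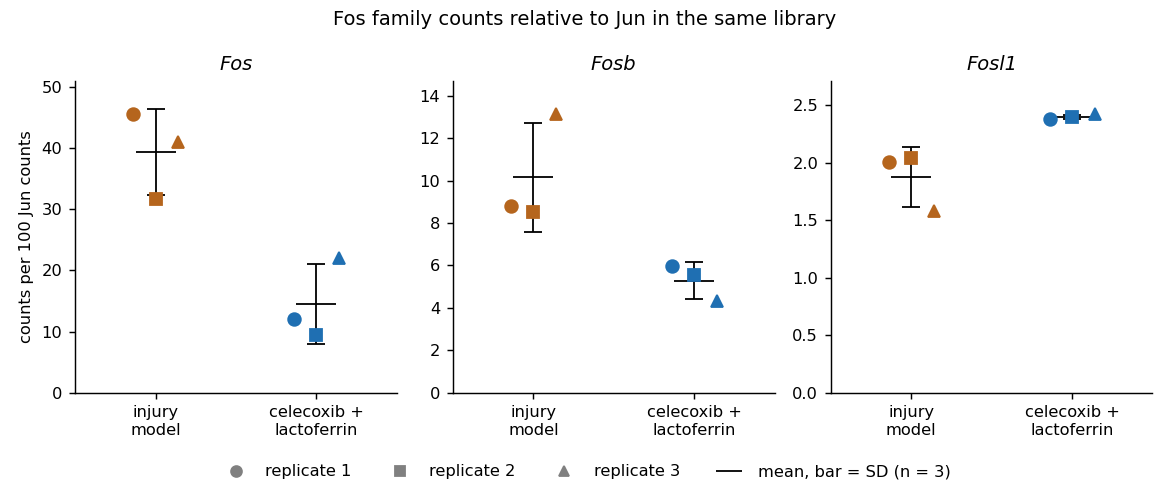
Counts of Fos, Fosb and Fosl1 per 100 Jun counts in the same library (vertical axes from 0, one per gene) for the injury model and celecoxib + lactoferrin libraries; symbols mark the replicate, the line is the mean and the bar the SD (n = 3). Fos and Fosb are lower relative to Jun in all treated libraries, while Fosl1 lies at 2.38 to 2.42 against 1.58 to 2.04, a gap within counting error for the closest libraries.

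The spread between replicates exceeded counting error in both groups for every member except Fosl1. For Fos the coefficient of variation between replicates was 27.7% without treatment and 45.6% with it, whereas counting alone gives 1.97% and 4.40%. For Atf3 it was 21.99% and 47.7%, with 3.28% and 4.77% from counting. The treated Fosl1 libraries varied by 3.31%, less than the 10.2% that counting gives. The injury model Fosl1 libraries varied by 14.8%, against 8.996% from counting. A coefficient of variation from 3 libraries is imprecise, so whether Fosl1 varied beyond counting in the injury model group is not settled.

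Among the other genes tested, the pattern over the 6 libraries most like that of the members, measured as Pearson's r with the mean z score of the 6 members, was that of ENSRNOG00000007849 (r = 0.99 over 6 libraries) and ENSRNOG00000003300 (r = 0.99). The first had 3.40 ± 0.441 CPM (SD, n = 3) without treatment and 2.28 ± 0.242 CPM (SD, n = 3) with treatment. The second had 61.5 ± 11.4 CPM (SD, n = 3) against 31.5 ± 1.98 CPM (SD, n = 3), a log2 fold change of -0.97 (standard error 0.18). Its adjusted p-value was 0.76 in edgeR's quasi-likelihood test. Both were picked as the extremes of 15122 genes, so a high r is given by the choice.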

How the data were processed

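Libraries of total RNA from tendons of 3 injury model rats and 3 celecoxib + lactoferrin treated rats were sequenced on an Illumina platform. The authors removed low-quality reads, aligned the rest with HISAT2 to Rnor_6.0 and deposited raw counts per Ensembl gene ID, 1 column per sample. The labels also list the human build GRCh38.p13 with no role; the gene IDs are those of rat. The counting tool, its strand setting and how it treated multi-mapped reads are not given in the sources used here, so counts of overlapping genes are uncertain. Columns were assigned by group letter and replicate number.

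From these counts, edgeR 4.0.16 in R 4.3.3 was fitted to all 6 libraries (TMM, filterByExpr, robust quasi-likelihood fit, Benjamini-Hochberg adjustment over 15122 genes). Standard errors were taken from the fold change and its F statistic, whose dispersion edgeR moderates across genes. Log2 CPM used a prior count of 2. DESeq2 1.42.0 and limma 3.58.1 (voom) were alternatives, beside other scalings, filters, a replicate block, a term for library depth and each library left out. The fits were tested on simulated data. Replicates are taken as separate rats, as the methods imply. The p-values weigh the difference between the groups against the spread between these samples. No pair of libraries was a duplicate (chi-square per degree of freedom at least 86.9).

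The members, lists and alternatives were chosen with earlier results of these data known. Genes named are the members and, by likeness of pattern, other genes, of which at most 2 lower and 2 higher IDs are given. The 123 entries of the pathway and cell type marker lists were not analysed, since no ID was paired with a symbol.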

Additional observations from a re-analysis of the deposited data

How the results depend on the processing

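The log2 fold changes of the 6 members and their median moved by less than the spread between replicates under all 14 alternatives, with the median between -0.84 and -0.54. For the 6 fits that each left out 1 library this was nearly given in advance. Leaving out 1 of 3 replicates shifts a group mean by less than that spread, so no stability is read from it. Over those fits Junb ran from -0.69 to -0.20 and Atf3 from -1.02 to -0.40. The counts over all genes moved more. Genes with an unadjusted p-value under 0.05 (395) numbered 223 with a term for library depth. Over the fits that each left out 1 library they lay between 226, where injury model replicate 1 was left out, and 890, where celecoxib + lactoferrin replicate 3 was. At an adjusted p-value under 0.05 (1 gene in edgeR) there were 26 with the DESeq2 Wald test and 3 with no filter on low counts. There were 0 with limma voom, with at least 10 counts in every sample and with the replicate block, beside 375, 407 and 326 genes at an unadjusted p-value under 0.05. Over the fits that left out 1 library they ran from 1 to 9 (without injury model replicate 2; 6 without celecoxib + lactoferrin replicate 3). The median r of the members' deviations (0.42) ran from -0.13 without injury model replicate 2 to 0.53 over these fits, and was 0.091 without injury model replicate 1. The cause of these moves was not tested. Equal replicate numbers showed no sign of pairing the rats. The correlation of deviations across genes was 0.0048, 0.057 and -0.27 for same-numbered libraries, and 1 of the 6 libraries correlated best with its own number. So few libraries cannot exclude a pairing. The block moved no member beyond the spread between replicates (Fos -2.17, Fosb -1.58). It crosses the groups evenly, so it could shift the fold changes only a little. Depth limits Fosl1, the member with the fewest counts.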
